A study of Caenorhabditis elegans with 2 samples.

Results

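Histone genes were followed in a list of sites precipitated with an antibody against ATFS-1, the transcription factor that drives the worm's response to unfolded proteins in mitochondria, from Caenorhabditis elegans under mitochondrial stress. The members were the rows of the deposited peak list that carried at least 1 gene name starting with his- or htz-, and there were 8 such rows among 1005, or 0.796% of the list. The 8 rows carried 13 different histone names. Of the rows, 5 named a pair of his- genes, taken here as cluster rows, and 3 named a single histone gene. The cluster rows were his-7/his-8, his-61/his-62, his-59/his-60, his-35/his-41 and his-3/his-4, and the single rows were his-72/rpt-6, htz-2/wapl-1 and his-24.

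Both groups were whole-worm lysates of worms with a wild-type background, grown from eggs on spg-7(RNAi) food and harvested at the L4 larval stage at about 48 h. The RNAi silences spg-7, whose product is a protease of mitochondria, and it was given to both groups. One library was precipitated with the ATFS-1 antibody and the other was carried through with no antibody, so each condition had 1 library, no difference has a replicate check, and no p-value is given. The lysate pools all tissues, so a site bound in a few cells cannot be told apart from a weakly bound site in many.

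Core histones form the spool of the nucleosome: H2A pairs with H2B, H3 pairs with H4, and DNA wraps around the assembled octamer. The linker histone H1 binds where DNA enters and leaves the nucleosome. In C. elegans most core histones are encoded by many near-identical, mostly intronless copies in clusters, which are used chiefly when DNA is replicated, whereas variants such as H3.3 and H2A.Z come from single genes and are placed into chromatin outside replication as well. Changes in histone methylation and acetylation are known to accompany the mitochondrial unfolded protein response in this animal.

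For each row the authors' peak caller gave the number of antibody tags (mapped, de-duplicated reads) in the region, the fold enrichment over the expected control level, a score, and the percent of false discoveries it estimated (the rate below). The score was read as 10 times the negative log10 of the caller's p-value. These are the authors' values and are used only to describe and rank rows within this 1 list. De-duplicated depth was 10992796 tags with antibody and 10583049 tags without. No source used here names the genome build of the coordinates, and whether a row lies over a promoter, an exon or a neighbouring gene was not analysed here. Copies of a histone type are near-identical, and how reads that map to several copies were placed is not given, so the tags of a cluster row may belong in part to other copies.

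The median fold of the histone rows lay near that of the list, while their ranks by fold ran from 211 to 974 of 1005. Their fold enrichment ran from 2.34 to 4.37 with a median of 3.41, against 3.26 for all 1005 rows, whose quartiles were 2.75 and 4.04. At or above the list's median fold stood 6 of the 8 histone rows, beside 50.1% of all rows. None of the 8 reached 5-fold, a level reached by 13.6% of all rows. No histone row was at a false discovery rate of 5% or below, as 3.18% of all rows were, and 2 of the 8 were below 6%, as 14.1% of all rows were. Together the 8 rows spanned 17835 bp and held 4011 tags, 0.875% of the tags in all rows.

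**Figure D1:**
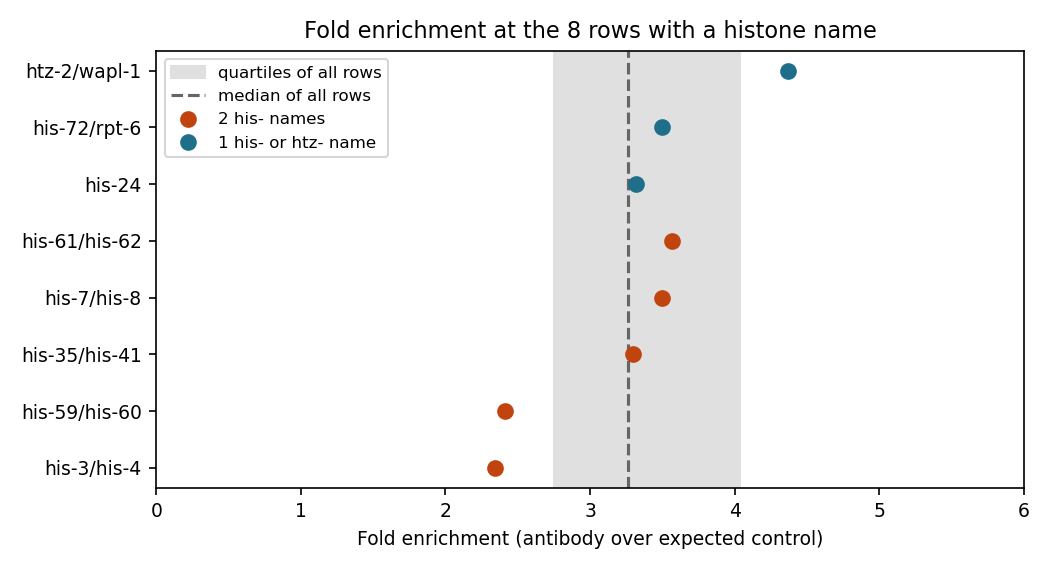
Fold enrichment (x axis, linear, from 0) of each of the 8 histone rows (y axis), coloured by whether the row names 2 his- genes or 1 histone gene. The grey band spans the quartiles of all 1005 rows, 2.75 to 4.04, and the dashed line is their median, 3.26; his-3/his-4 and his-59/his-60 lie below the band and htz-2/wapl-1 lies above it.

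Rows naming an H2A gene beside an H2B gene made up 4 of the 5 cluster rows. The row of his-61 (H2A) and his-62 (H2B) had the highest fold of the 4, 3.57, with 368 tags over 1564 bp, a score of 198.69 and a rate of 7.57% (chromosome IV, 7485566 to 7487129). The row of his-35 (H2A) and his-41 (H2B) was the longest and held the most tags of all 8, with 999 tags over 4353 bp, at 3.30-fold, a score of 195.35 and a rate of 7.44% (chromosome V, 9543424 to 9547776). The row of his-3 (H2A) and his-4 (H2B) was the lowest of all 8 by tags, fold and score (chromosome V, 16039974 to 16041167). It held 212 tags over 1194 bp, at 2.34-fold and a score of 67.10, and ranked 974 by fold among the 1005 rows. Its rate, 7.28%, was not the highest of the 8.

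The fourth of these rows was named his-7/his-8, an H2A and an H2B gene, and lay on chromosome I (9988319 to 9989590). It held 265 tags over 1272 bp at 3.50-fold, with a score of 94.90 and a rate of 7.80%. RefSeq's genes for assembly WBcel235, a table used here only for names, chromosomes, gene lengths and gene order, place his-7 and his-8 next to each other on chromosome V. On chromosome I that table lists 2 histone genes, his-67 and his-68, which are neighbours of each other and are named at no row of the list. The values of this row therefore stand under a name whose genes the table puts elsewhere, and several of the medians it enters are given without it below.

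H3 and H4 were named together at 1 row, that of his-59 (H3) and his-60 (H4) (chromosome IV, 7487448 to 7488893). It held 292 tags over 1446 bp at 2.41-fold, with a score of 79.20 and a rate of 7.74%. This row began 318 bp after the end of the his-61/his-62 row, and the gene table lists his-61, his-62, his-60 and his-59 as 4 consecutive protein-coding genes. All core histone types of this small cluster were thus named in the list, at a pair of rows whose folds differed by 1.48 times. The higher fold was at the row named for the H2A and H2B genes. The sample records gave DNA fragments of 500 to 1000 bp, longer than the gap between the rows. The same fragments may thus count toward both rows, and whether they are separate sites was not tested. A gap to the nearest row of 318 bp or less was found for 2.99% of all rows, and the median gap was 27036 bp. The cluster that holds his-3 and his-4 also has the H3 gene his-2 and the H4 gene his-1, but these were named at no row.

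The single rows named variants and the linker. The gene his-72, which encodes an H3.3 variant, was named with its neighbour rpt-6, a gene for an ATPase subunit of the proteasome, at a row of 691 tags over 2628 bp (chromosome III, 12366835 to 12369462). Its fold was 3.50, its score 375.01 and its rate 5.53%. At 263 tags per kb it was the densest of the 8 rows and ranked 142 of 1005 by density. The linker histone gene his-24, an H1, was the only member named alone, at a row of 324 tags over 1567 bp (chromosome X, 14489478 to 14491044), with 3.32-fold, a score of 164.84 and a rate of 7.77%. The H3.3 genes his-71 and his-74 were named at no row.

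The highest fold among histone rows, 4.37, belonged to htz-2/wapl-1, with 860 tags over 3811 bp, a score of 468.28 and a rate of 5.39% (chromosome IV, 4444941 to 4448751). The gene wapl-1 encodes a cohesin-releasing factor. The name htz-2 is not in the gene table, which lists 1 htz- gene, htz-1, the H2A.Z variant, on chromosome IV as the direct neighbour of wapl-1. Even this row ranked 211 by fold, 94 by tags and 157 by score among the 1005 rows.

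Set side by side, the single rows had the higher median fold and score, but both ranges overlapped with those of the cluster rows. Folds ran from 2.34 to 3.57 with a median of 3.30 at the 5 cluster rows and from 3.32 to 4.37 with a median of 3.50 at the 3 single rows, a difference of medians of -0.20 (cluster minus single). Scores ran from 67.10 to 198.69 at the cluster rows and from 164.84 to 468.28 at the single rows, with medians of 94.90 and 375.01. Tag density had medians of 208 tags per kb at the cluster rows and 226 at the single rows, against 204 for all rows. All 3 single rows and 3 of the 5 cluster rows stood at or above the list's median fold. With 1 library per condition the difference between the kinds of row was not tested. The size of the fold difference depended on which rows were kept. It was -0.02 among rows whose names were all histones, where his-24 was the only single row left. Among rows with scores at or above the list's median it was -0.065, with his-61/his-62 and his-35/his-41 the only cluster rows left. The difference was -0.65 without his-7/his-8. It was -0.56 without both his-7/his-8 and htz-2/wapl-1, the rows whose names the gene table does not bear out. Without his-7/his-8 the median score of the cluster rows was 137 and their median density 216 tags per kb.

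Gene length drew a different line through the rows. Of the 73 his- and htz- genes in the table, 61 had 1 of 5 lengths, each shared by 5 or more of them: 312 bp (15 genes), 369 bp (5), 372 bp (10), 384 bp (16) and 411 bp (15). The copies named at his-7/his-8, his-61/his-62, his-59/his-60 and his-3/his-4 all had such repeated lengths. The genes his-35 (630 bp) and his-41 (729 bp) did not, nor did his-72 (1576 bp) and his-24 (1026 bp), and htz-1 is listed at 784 bp. With htz-2/wapl-1 placed among the longer genes, the 4 rows of repeated-length copies were 1194 to 1564 bp long and held 212 to 368 tags, and the other 4 were 1567 to 4353 bp long and held 324 to 999. Their median folds were 2.96 and 3.41, and the first was 2.41 without his-7/his-8. This split was made after the values were seen and is a description only.

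**Figure D2:**
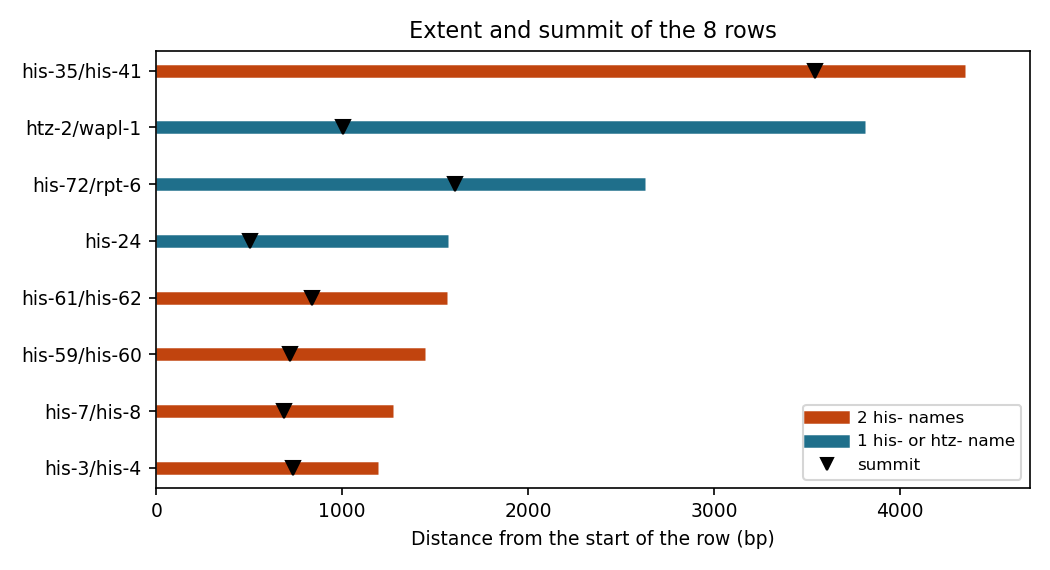
Length of each of the 8 histone rows (bar, in bp from the start of the row, x axis from 0) with the position of its summit (triangle), coloured by the number of histone names. The summit lies at 81.4% of the length of his-35/his-41 and at 26.4% of htz-2/wapl-1. In the 4 rows of repeated-length copies it lies at 49.8% to 61.7%.

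Summits lay furthest from the middle in 3 of the 4 rows of longer genes. In the 4 rows of repeated-length copies the summit lay at 49.8% to 61.7% of the row's length. The list's median was 51.2% and its quartiles were 40.6% and 61.5%. In the rows of longer genes it lay at 26.4% (htz-2/wapl-1), 32.2% (his-24), 61.1% (his-72/rpt-6) and 81.4% (his-35/his-41). The summit of his-35/his-41 was 811 bp from the end of a row of 4353 bp.

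The row of his-35 and his-41 had a low score for its tags. Ranked 70 by tags, it ranked 389 by score. Among the 32 other rows with tags within 10% of its 999, the median score was 778, and none of the 32 scored lower than its 195.35. Of the same 32 rows 7 had a lower fold, and their median fold was 4.48 against its 3.30. The row was also long for its tags, at 4353 bp against a median of 3774.5 bp, and 6 of the 32 were longer. Whether its length bears on its score was not tested. Lower scores were found in 24 of 138 rows of like tags at his-59/his-60, 22 of 61 at his-72/rpt-6 and 16 of 42 at htz-2/wapl-1. They were found in 78 of 185 at his-3/his-4, 88 of 166 at his-7/his-8, 62 of 96 at his-61/his-62 and 83 of 124 at his-24. By fold, his-59/his-60 and his-3/his-4 were low for their tags: 7 of 138 rows with tags like the first had a lower fold, and 10 of 185 rows with tags like the second. The window was chosen after the values were seen.

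**Figure D3:**
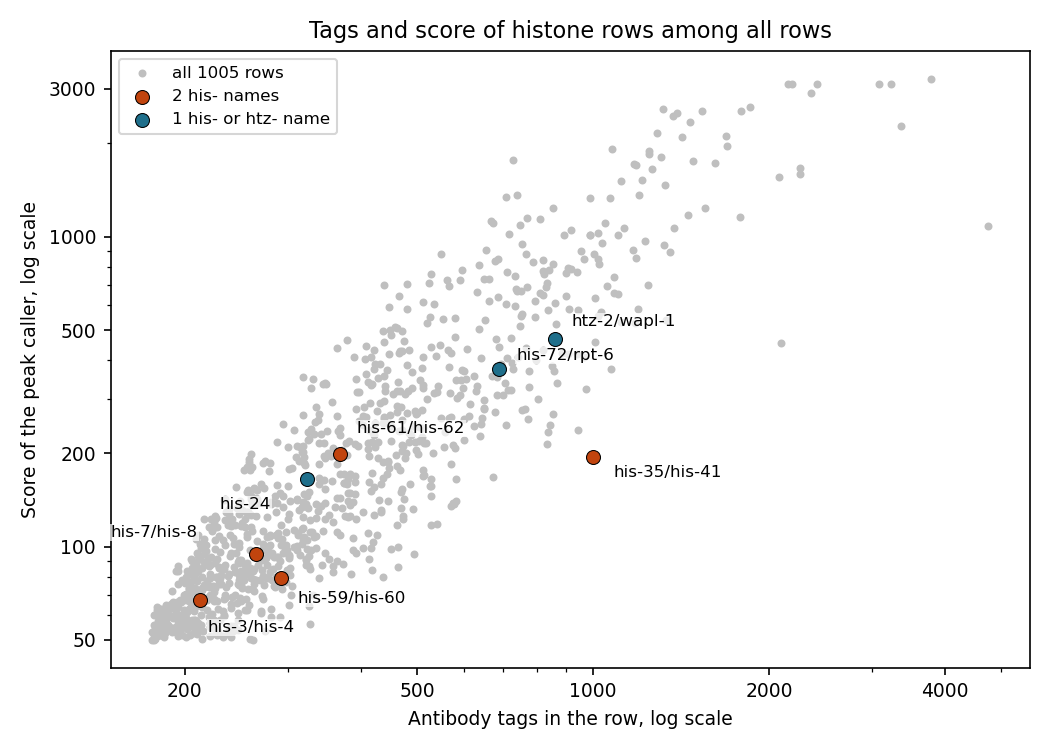
Antibody tags in the row (x axis, log scale) against the caller's score (y axis, log scale) for all 1005 rows (grey) and the 8 histone rows (coloured by the number of histone names). The row his-35/his-41, at 999 tags and a score of 195.35, lies below the rows of like tags, and the other 7 lie within the cloud.

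**Figure D4:**
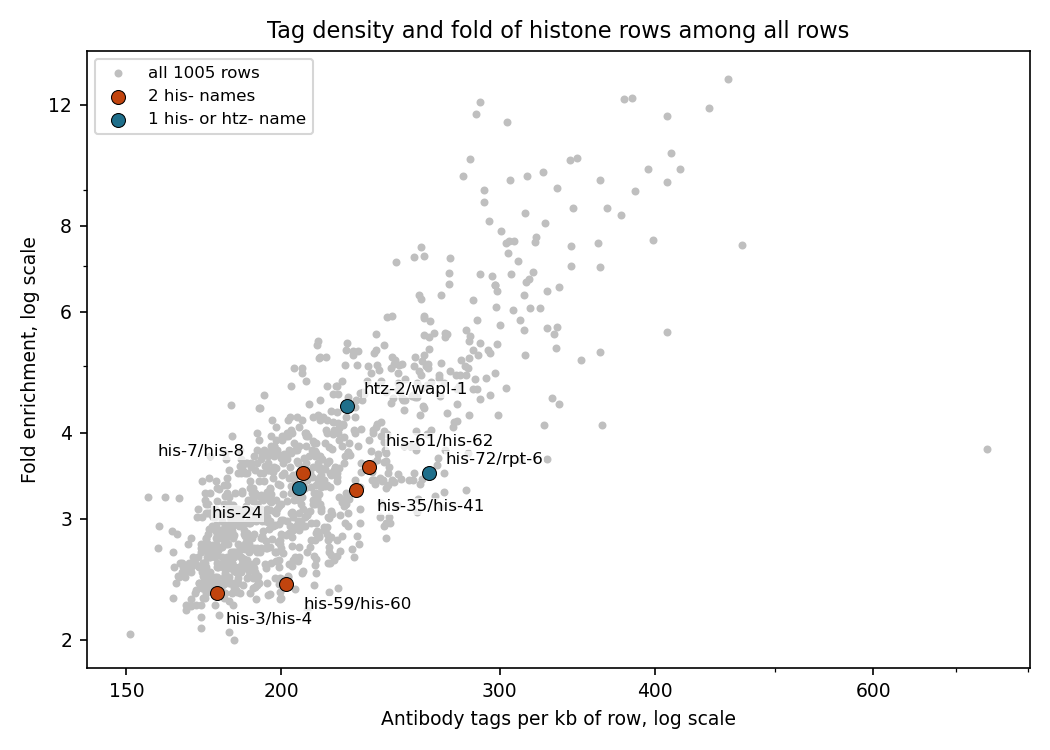
Antibody tags per kb of row (x axis, log scale) against fold enrichment (y axis, log scale) for all 1005 rows (grey) and the 8 histone rows (coloured). Histone rows run from 178 to 263 tags per kb and from 2.34-fold to 4.37-fold, away from the strongest rows of the list, which reach 13.08-fold.

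Most histone genes and most of their clusters had no named row, as was so for most protein-coding genes of the table. The table's 73 his- and htz- genes formed 16 runs of 2 or more neighbouring histone genes, with 66 genes in all, and 7 that stood alone. Of the 13 names in the list, 12 were in the table and 10 lay on the chromosome of their row. These 10 were 13.7% of the 73, beside 4.52% of 19971 nuclear protein-coding genes named at a row on their own chromosome. Genes of 1 cluster share rows, so the 10 genes rest on 6 rows and are not 10 separate observations. Of the 16 runs, 3 had a named gene by this measure, and of the 7 genes that stood alone, 2 did (his-72 and his-24). The longest run, 13 genes on chromosome II, had none, nor did the run of 8 on chromosome V that holds his-17 to his-22. No share for runs of other genes was computed. Among the 61 genes of repeated length 6 were named, or 9.84%, and among the other 12 genes 4 were, or 33.3%. The gene htz-1 is among these 12 and among the 7 that stood alone. It was counted as not named, because the row shared with wapl-1 reads htz-2. The split by length was made after the values were seen. How reads that fit several copies were placed is not given, so a missing row at repeated copies cannot be read as missing binding.

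**Figure D5:**
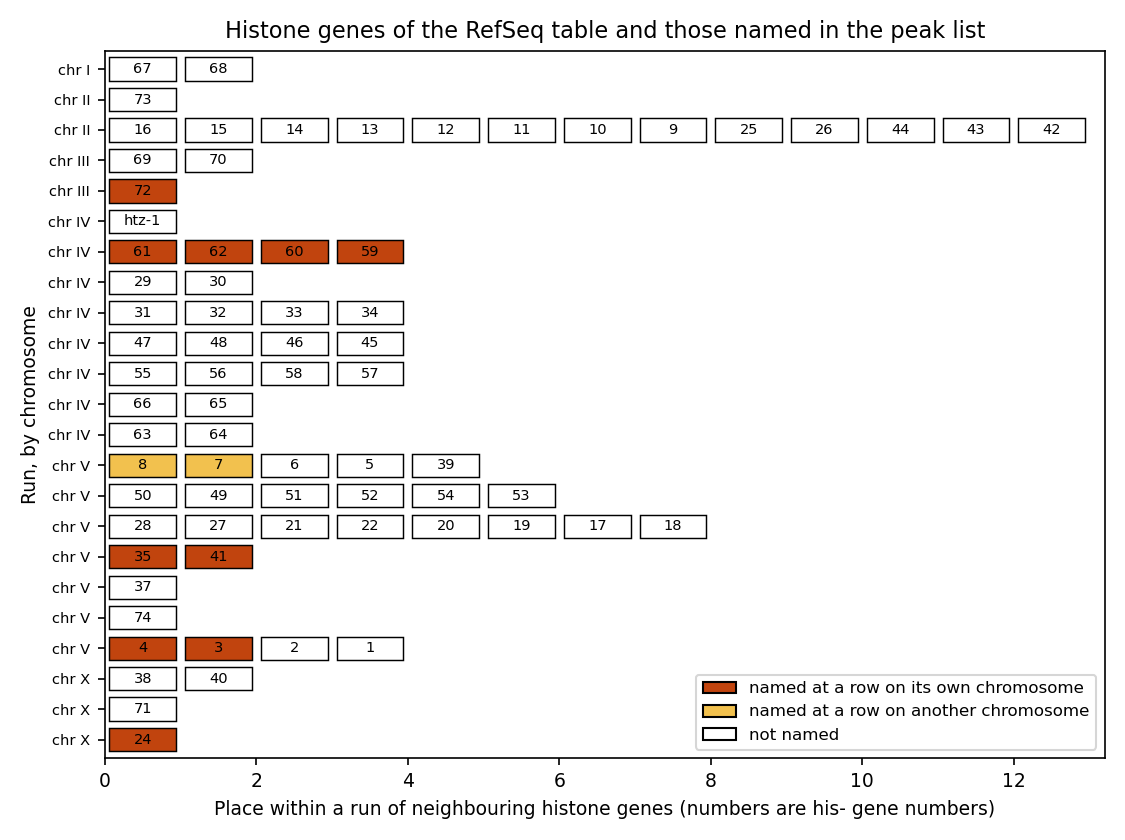
The 73 his- and htz- genes of the RefSeq table (assembly WBcel235), in runs of neighbouring protein-coding genes (x axis, place within the run; y axis, runs by chromosome), with genes named at a row of their own chromosome filled dark and those named on another chromosome filled light. All 4 genes of 1 run on chromosome IV are filled, and the run of 13 on chromosome II is empty.

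By chromosome, the list had 3 histone rows on IV, 2 on V, 1 each on I, III and X and none on II. The table holds 23 histone genes on IV, 27 on V, 14 on II, 4 on X, 3 on III and 2 on I. On chromosome II, with 14 histone genes and no histone row, the list held 139 rows of other genes or of no name.

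Rows with more than 1 gene name were frequent among histone rows, with 7 of 8 against 9.95% of all rows, which the pairing of histone names fixes in 5 cases. Folds of rows with 2 or more names had a median of 3.50 over the 100 such rows of the list. By tags per kb divided by fold, histone rows ran from 51.6 (htz-2/wapl-1) to 83.8 (his-59/his-60), with a median of 67.7 against 62.5 for all rows. This ratio was not checked against the control library and is not a measured control level.

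Genes that work with histones were also looked up by name. Of 10 other linker and centromeric histone genes, 3 were named. The gene hcp-3, the centromeric H3 variant, shared a 2.76-fold row of 493 tags with its neighbour hlh-11, and the linker-type gene hil-2 had a 2.42-fold row of 252 tags. The name hil-1 stood at a 3.70-fold row of 202 tags on chromosome X, whereas the table puts hil-1 on chromosome V and hil-3 on X. Of 14 genes of histone mRNA processing and histone chaperones in the table, 0 were named.

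Of 33 genes of histone methylation and demethylation 4 were named. The gene set-25, for an H3 lysine methyltransferase, stood at 4.17-fold with 320 tags, and set-16, an H3 methyltransferase of the MLL type, shared a 3.51-fold row with drr-2. The H3 demethylase gene rbr-2 stood at 2.64-fold, and ash-2, a subunit of an H3 methyltransferase complex, at 2.59-fold with 854 tags. Of 20 genes of histone acetylation and deacetylation 2 were named, the acetyltransferase gene cbp-1 at 4.57-fold with 398 tags and the deacetylase gene hda-4 at 4.25-fold with 249. The fold at cbp-1 was above those of all 8 histone rows, and that at hda-4 above those of 7. Most genes of the methylation list were named at no row. Among them were met-2, lin-65, jmjd-1.2 and jmjd-3.1, regulators of histone methylation known from work on the mitochondrial unfolded protein response.

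Of 18 DNA replication genes 3 were named. The gene rpa-2, which encodes a subunit of the single-stranded DNA binding complex, stood at 7.59-fold with 819 tags, higher than any histone row. The helicase gene mcm-4 stood at 2.98-fold and pcn-1, the gene of the replication clamp, at 2.68-fold. Of 14 germline markers 1 was named, glh-4, at a 2.83-fold row shared with lin-59. In percent of genes in the table named on their own chromosome, these lists came to 20% (other histones), 12.1% (methylation), 10% (acetylation), 16.7% (replication), 7.14% (germline) and 0% (histone mRNA processing and chaperones), from 0 to 4 genes each, beside the 4.52% of all nuclear protein-coding genes.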

How the data were processed

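The deposited list was made from 1 antibody library and 1 no-antibody library. Per the file headers, peaks were called with MACS 1.4.2 on single libraries at a p cutoff of 1e-05. The effective genome size was 90000000 bp, tags were 50 bp long, and no position kept more than 1 of them. The headers also list the caller's own length value, d, as 200 bp. It is not the size of the sheared DNA, which the sample records gave as 500 to 1000 bp for both libraries. BWA 0.7.5, Picard and MACS 1.4 stand in the submitters' processing notes. Duplicates were 40.0% of the antibody tags and 20.3% of the control tags per the file headers, and the header placed the libraries in separate sequencing projects, so project and antibody cannot be told apart. Tag counts, fold enrichment (a ratio), the score and the false discovery rate in percent are as deposited by the authors. The heading of the score column was lost in the file. The score was read by its place and its smallest value, 50.06.

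Names were split at "/", matched in Python 3.11.15 with pandas 2.3.3 and NumPy 2.4.6, and tested on simulated names. Tags per kb, ranks, medians and gaps were computed from the list. No test was run. Every row found was described, with genes of lists of histone-related genes that were named at a row. The members and lists were chosen with earlier results of these data known. No source used here says how the authors assigned names, and no sequence was used.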

Additional observations from a re-analysis of the deposited data

How the results depend on the processing

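No paired analysis was possible because there is only 1 library with and 1 without antibody, so none could be left out. Among rows at a false discovery rate of at most 5%, 0 histone rows and 0 histone genes were left, 0 of them at or above the median fold, and no medians could be given. With scores at or above the list median, 5 rows and 6 genes were left (8 and 12 in the full list), with a median fold of 3.50, 229.5 tags per kb (217 in the full list) and a cluster minus single difference of -0.065. With only rows whose names were all histones, these were 3.31, 207.5 and -0.02, with his-24 the only single row left. Geometric means gave 3.23, 217.2 and -0.73. Counting each histone gene once gave a median fold of 3.32 and 208.3 tags per kb. In tags per kb the cluster minus single difference was -17.3. The remaining exclusions and regroupings were added after the data were seen. Without his-7/his-8 and htz-2/wapl-1 the median fold was 3.31, the density 218.1 and the difference -0.555. Without his-7/his-8 alone the median fold was 3.32 and the difference -0.645. With his-35/his-41 among the single rows the difference was -0.455. Wherever a difference could be given, the cluster rows had the lower median, or the lower geometric mean. All these settings reuse the same 8 rows, so they are not independent checks. Why the difference varied in size was not tested. Under the alternatives other than the rate and score limits, the list held 6 to 11 histone rows, 10 to 15 histone genes and 4 to 6 histone rows at or above the median fold; splitting names at other marks and defining clusters by gene order changed no value. The list holds called peaks, so a histone gene without a row is one without a called and named peak.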
